A study of Mus musculus with 3 samples.

Results

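The genes described here make, break down, carry or respond to retinoic acid, the vitamin A derivative that starts meiosis in the testis. They are 9 genes, Aldh1a1, Aldh1a2, Aldh1a3, Cyp26a1, Cyp26b1, Crabp1, Crabp2, Stra6 and Stra8, picked by symbol in the platform annotation, out of 19938 genes named on the array. All 9 were measured, each by 1 probe set that names only that gene. RNA came from testis tubules of wild type BALB/c males aged 30 days, in 3 samples labelled spermatids and numbered replicates 1, 2 and 3 of 1 group, and was hybridised to the Affymetrix GeneChip Mouse Gene 1.0 ST array. Per the labels, tubules were cut, homogenised and passed through a strainer, and no step that purifies spermatids is described. No control or second condition was given, so each level was set against a background made of other genes on the same arrays. The labels do not state whether the replicates are separate animals, so p-values rest on the spread between these arrays, which may be technical. They take the background level as a fixed number without error. A gene with the same value on all 3 arrays has no such spread, and its p-value rests on the variance borrowed from other genes.

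Retinol enters cells through the membrane receptor STRA6 and is oxidised to retinal by retinol dehydrogenases. Retinaldehyde dehydrogenases of the ALDH1A family then turn retinal into retinoic acid, which CRABP proteins bind in the cytoplasm and CYP26 enzymes hydroxylate for removal. Retinoic acid acts through nuclear RAR and RXR receptors on direct repeats of a short half-site near its target genes. In the mouse testis it drives the differentiation of spermatogonia and induces Stra8, which is needed for entry into meiosis.

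Promoter sequences are given for Cyp26a1 and Stra8, which are among the members known as direct retinoic acid targets. They are also given for the synthesis genes Aldh1a1 and Aldh1a2, whose levels are described next. All of these genes were picked with the levels known, and the other synthesis gene, Aldh1a3, was not called. Sequences are from RefSeq on GRCm38.p6, 5′ to 3′ along the gene, from 250 bases before to 50 after a transcription start. Capitals mark the retinoic acid receptor half-site AGGTCA, the variant AGTTCA, the variant GGGTCA or the variant GGTTCA on either strand and, in Cyp26a1, a direct repeat of 2 such hexamers with 5 bases between them. For Aldh1a1 the second of 2 listed starts is shown.
Cyp26a1, chr19:37697558-37697857, + strand: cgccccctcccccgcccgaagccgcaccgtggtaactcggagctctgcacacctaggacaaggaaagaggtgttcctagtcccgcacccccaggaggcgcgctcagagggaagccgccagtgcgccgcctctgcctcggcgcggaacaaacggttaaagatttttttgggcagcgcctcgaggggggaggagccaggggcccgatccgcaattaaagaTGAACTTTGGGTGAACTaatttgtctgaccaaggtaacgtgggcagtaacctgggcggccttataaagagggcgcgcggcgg
Stra8, chr6:34920698-34920997, + strand: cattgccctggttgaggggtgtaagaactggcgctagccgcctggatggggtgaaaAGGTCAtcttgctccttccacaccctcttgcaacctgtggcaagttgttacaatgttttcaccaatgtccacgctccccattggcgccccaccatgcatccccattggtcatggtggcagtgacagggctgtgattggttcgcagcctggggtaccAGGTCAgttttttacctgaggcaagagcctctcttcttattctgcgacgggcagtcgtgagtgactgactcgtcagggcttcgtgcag
Aldh1a1, chr19:20601718-20602017, + strand: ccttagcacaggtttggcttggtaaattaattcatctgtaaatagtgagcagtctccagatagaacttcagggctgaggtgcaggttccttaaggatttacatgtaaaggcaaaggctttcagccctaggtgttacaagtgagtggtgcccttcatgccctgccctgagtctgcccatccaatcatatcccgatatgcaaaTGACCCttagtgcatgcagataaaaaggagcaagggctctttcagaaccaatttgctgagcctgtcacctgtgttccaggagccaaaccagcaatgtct
Aldh1a2, chr9:71215539-71215838, + strand: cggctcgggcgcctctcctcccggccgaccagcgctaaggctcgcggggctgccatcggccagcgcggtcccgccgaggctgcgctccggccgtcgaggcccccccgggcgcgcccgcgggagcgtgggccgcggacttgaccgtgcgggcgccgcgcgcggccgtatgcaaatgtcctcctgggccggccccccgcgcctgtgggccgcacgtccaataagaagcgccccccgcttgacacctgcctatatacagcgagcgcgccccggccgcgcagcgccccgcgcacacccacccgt

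Of the 9 genes, 3 were above background: the synthesis genes Aldh1a1 and Aldh1a2 and the binding protein gene Crabp1. Both Cyp26 hydroxylase genes, the response gene Stra8, the uptake gene Stra6, Aldh1a3 and Crabp2 were not called. The background level was 7.98 on the log2 scale, the 95th percentile of the mean levels of 211 vomeronasal receptor and hair keratin associated protein genes, which are not expected in testis. A gene was called when its mean passed that level in limma (one-sided, Benjamini-Hochberg adjusted over all 19938 genes, threshold 0.05). The 3 of 9 members called make 33.3%, near the 36.6% called among all named genes. The median of the members' mean levels was 7.31, against 7.45 for all named genes. Median levels of the background genes themselves were far lower, at 4.77, so a gene that was not called is not shown to be absent.

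**Figure D1:**
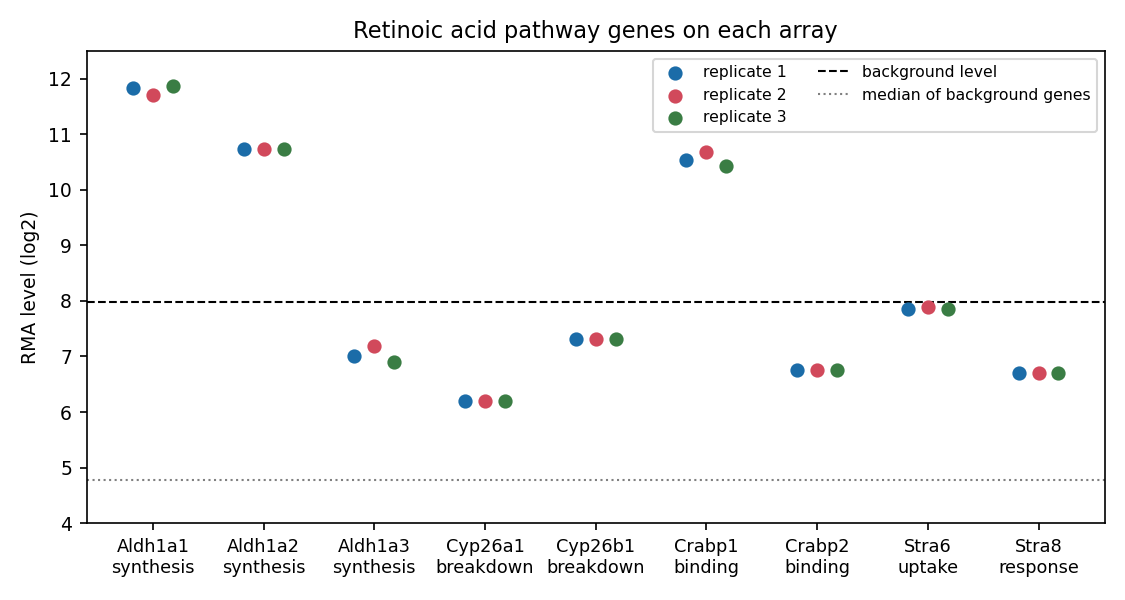
RMA level (log2) of each of the 9 genes on each of the 3 arrays, 1 point per array, with the background level of 7.98 dashed and the median of the background genes at 4.77 dotted. Aldh1a1, Aldh1a2 and Crabp1 lie above 10 on every array, and the other 6 genes lie below the dashed line on every array.

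Aldh1a1, which encodes a cytosolic retinaldehyde dehydrogenase, had levels of 11.83, 11.71 and 11.86 in replicates 1, 2 and 3. The mean was 11.80 ± 0.08 (SD, n = 3), which is 3.82 above the background level (limma, adjusted p = 0.000102). The level exceeded that of 98.7% of all named genes and that of every one of the 211 background genes. Replicate 2 was lowest, and all arrays stood far above the level. In mice Aldh1a1 has a close paralog on the same chromosome 19, Aldh1a7, whose probes may not fully separate from those of Aldh1a1, and this was not tested. Aldh1a7, named after its values were seen, had 9.01, 9.01 and 9.17 in replicates 1, 2 and 3.

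Aldh1a2 encodes the retinaldehyde dehydrogenase that is essential for retinoic acid in the early mouse embryo, and in the testis its product is known from meiotic and haploid germ cells. It had exactly 10.74 on all 3 arrays, 2.75 above the background level (limma, adjusted p = 8.79e-11). Tied values of this kind were common, at 9173 of 19938 genes (46.0%) and 5 of the 9 members, and an SD of 0 then means tied values and not an absence of error. For a tied gene the test only asks on which side of the level it lies. With each gene's SD raised to at least 0.054, the median SD of genes whose values were not all tied, Aldh1a2 was still called. After that step limma drew the SDs towards a common value, so genes with a wide spread were tested with a smaller SD than their own. Rdh14, with an SD of 0.28, was not called in the main setting (limma, adjusted p = 0.437) but was called there (limma, adjusted p = 0.000238). The setting was thus not a stricter test for every gene.

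The level of Aldh1a3, another retinaldehyde dehydrogenase known from the developing eye and nose, was 7.01, 7.19 and 6.89 in replicates 1, 2 and 3. Its mean of 7.03 ± 0.15 (SD, n = 3) gave a mean minus background level of -0.95, and it was not called. All of its values were below the level, and 90.5% of the background genes were lower. Of the synthesis genes 2 of 3 were above background, against 36.6% of all named genes, a count too small to compare with that share. Probes of different genes bind unequally well, so the values do not rank the amounts of RNA of the family.

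Neither measured hydroxylase gene among the members was above background. Cyp26b1, whose product removes retinoic acid in the fetal testis, had 7.31 on all 3 arrays with tied values. Cyp26a1, a hydroxylase gene that retinoic acid itself induces in many cells, had 6.21 on all 3 arrays with tied values. Its mean minus level of -1.78 was the lowest among the 9 members, and 37 of the 211 background genes were higher. The call for Cyp26b1 depended on the background: at a level of 7.18, set from 1027 olfactory receptor genes in the same way, it lay 0.13 above the level and was called (limma, adjusted p = 6.28e-09), while Cyp26a1 was not called. The other gene of that family, Cyp26c1, had 6.86, 6.92 and 6.86 in replicates 1, 2 and 3 and was not called either.

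Crabp1 and Crabp2 encode the cellular retinoic acid binding proteins. Crabp1 had 10.54, 10.69 and 10.43 in replicates 1, 2 and 3, with a mean of 10.55 ± 0.13 (SD, n = 3), 2.57 above the background level (limma, adjusted p = 0.000569). It was above every background gene on average and above 92.5% of all named genes. Replicate 2 was highest and replicate 3 lowest, a spread of 0.25 that is small against the distance to the level. Crabp2, whose protein passes retinoic acid to the nuclear receptor, had 6.76 on all 3 arrays with tied values, a mean minus level of -1.22.

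Stra6 and Stra8 were first found as genes stimulated by retinoic acid. Stra8, a gene of differentiating spermatogonia and of germ cells about to enter meiosis, had 6.71 on all 3 arrays with tied values and was not called. Its mean minus level was -1.27, and 85.8% of the background genes were lower. Stra6, the gene of the retinol receptor, had 7.84, 7.89 and 7.84 in replicates 1, 2 and 3, a mean of 7.86 ± 0.02 (SD, n = 3). Replicates 1 and 3 were tied, so this SD and the p-values that rest on it may understate the error. All values of Stra6 lay just below the level, with a mean minus level of -0.12, and 12 of the 211 background genes were higher. Its call turned on which background genes were used. Without the 4 vomeronasal pseudogenes among them, an alternative added after the data were seen, the level was 7.64 and Stra6 lay 0.21 above it (limma, adjusted p = 0.00254). At that level 4 of the 9 members were called, against 43.6% of all named genes. With the olfactory receptor level Stra6 lay 0.68 above (limma, adjusted p = 0.000179), and 5 of the 9 members were called, against 55.0% of all named genes.

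**Figure D2:**
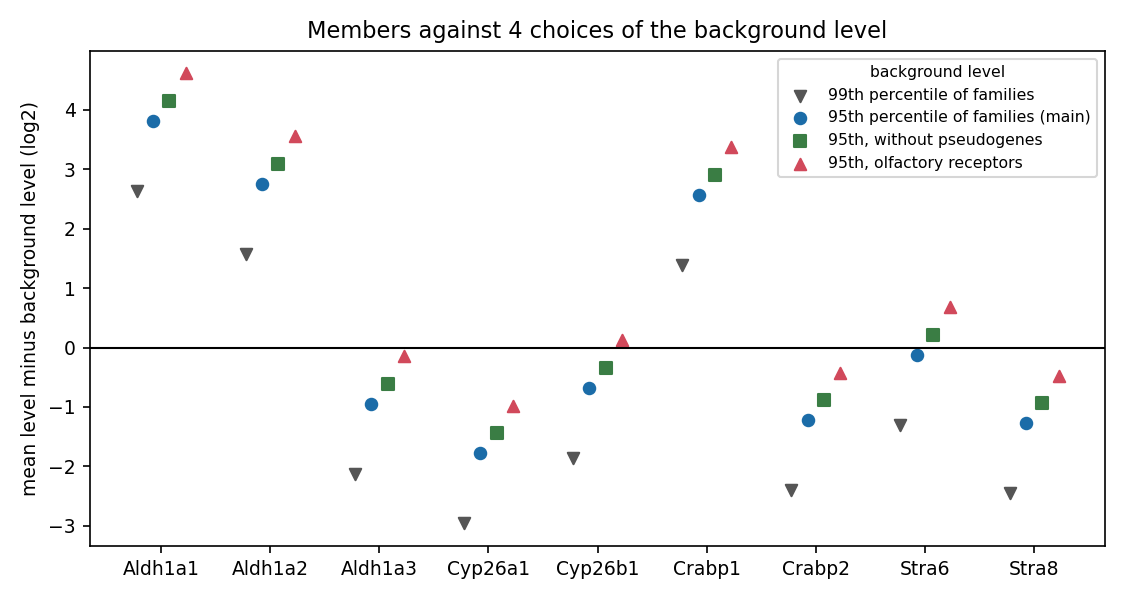
Mean level minus background level (log2) of each member under 4 choices of the background level, 1 marker per choice. Aldh1a1, Aldh1a2 and Crabp1 stay above 0 under all 4, Stra6 crosses 0 under 2 of them and Cyp26b1 under the olfactory receptor choice, and the remaining members stay below 0.

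The 3 called members also stayed above the strictest level tried, 9.16, the 99th percentile of the background genes. There Aldh1a1 lay 2.64, Aldh1a2 1.57 and Crabp1 1.39 above it, and they were the 3 members called, against 19.3% of all named genes. Asking without a model that all 3 arrays exceed the level of 7.98 gave the same 3 members, against 37.6% of all named genes. Adding probe sets of several genes raised the level to 8.37, and the same 3 members were called, against 30.7% of all named genes.

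**Figure D3:**
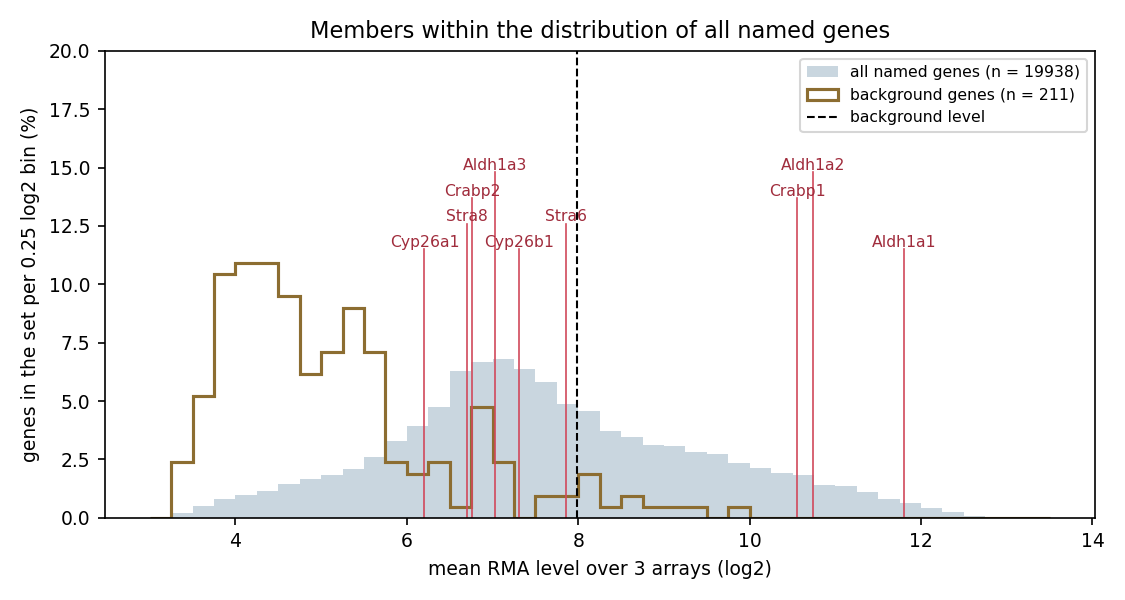
Mean RMA level (log2) over the 3 arrays on the horizontal axis and the percent of genes per bin on the vertical axis, for all 19938 named genes (filled) and the 211 background genes (line), with the 9 members marked. Aldh1a1, Aldh1a2 and Crabp1 lie in the upper tail, and the other 6 lie in the middle or lower part of the distribution of all genes.

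The spread between arrays differed among the members. Values of Aldh1a1, Aldh1a3, Crabp1 and Stra6 were not all tied, with SDs of 0.08, 0.15, 0.13 and 0.02. The median SD among all genes whose values were not all tied was 0.054. Stra6 was tied between replicates 1 and 3, and such partial ties, also seen in Cyp26c1, Kit and Rarres1, can make an SD too small. Crabp1 and Aldh1a3 had their highest value in replicate 2 and their lowest in replicate 3, while Aldh1a1 had its lowest in replicate 2. With 1 array per replicate these deviations have no test. The mean level of 12 spermatocyte markers was 11.40, 11.35 and 11.48 in replicates 1, 2 and 3. Spermatogonia markers averaged 7.61, 7.62 and 7.61 in that order, Leydig cell markers 10.00, 9.88 and 9.94, and Sertoli cell markers 8.73, 8.71 and 8.73. Whether cell mixture played a part in the members' deviations was not tested.

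Markers of several cell types were measured on the same arrays, and their counts stand beside the 36.6% called among all named genes. All 12 spermatid markers were above background, with Prm2 at 13.22 and Smcp at 12.97 highest and Tssk2 at 11.79 and Spaca1 at 11.78 lowest, and so were all 12 spermatocyte markers, from Ldhc at 12.92 and Adam3 at 12.49 to Piwil1 at 10.12 and Dmc1 at 9.15. Of Leydig cell markers 7 of 8 measured were called, and of Sertoli cell markers 8 of 11, led by Cyp17a1 at 11.36 and Cst12 at 11.81. As background, Aldh1a1 in the mouse testis is known from these somatic cells. Of spermatogonia markers, the cells in which Crabp1 and Stra8 are known to be expressed, 4 of 12 were called (33.3%, near the share of all genes), with Dmrtb1 at 8.86 and Id4 at 8.59 highest and Ret at 6.65 and Nanos2 at 6.59 lowest. At the level of 9.16 the count was 0 for spermatogonia, 3 for Sertoli and 6 for Leydig cell markers, against 19.3% of all named genes. Kit, at 8.24, was also lost without replicate 1 or 3. Peritubular, endothelial and stromal markers were called in 6 of 12, and blood and immune markers in 4 of 9 measured (44.4%). Markers of other tissues were called in 0 of 10 with limma, and the means of all 10 lay below the background level. Their counts without adjustment (p under 0.05) and without a model (every array above the level) therefore had to be 0 too. For these markers the count was 4 with the olfactory receptor level. The share of each cell type in the level of a retinoic acid gene was not tested, and in such RNA fewer cells of a type and less RNA per cell cannot be told apart.

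**Figure D4:**
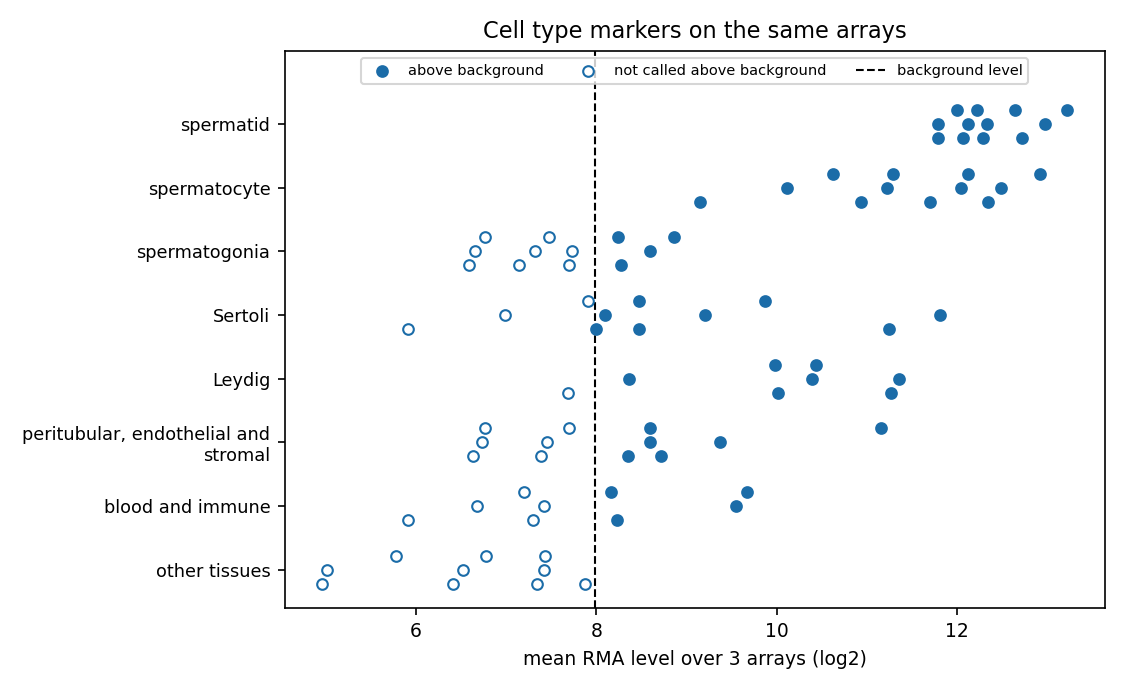
Mean RMA level (log2) over the 3 arrays of each measured marker, 1 point per gene, by cell type, filled where called above background and open where not, with the background level dashed. All 12 spermatid and all 12 spermatocyte markers lie to the right of the line, most Leydig and Sertoli markers do too, and 4 of 12 spermatogonia markers do.

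Beyond the 9 members, 17 of 55 measured genes of the wider retinoid pathway were above background (30.9%), against 36.6% of all named genes. Their median level was 7.18, against 7.45 for all named genes. In the group of retinol binding, uptake and storage 3 of 12 measured genes were called, Dgat1, Bco1 and Lrat. At the level of 9.16 Bco1 and Lrat were lost and 1 was left, against 19.3% of all named genes. Dgat1, which can esterify retinol besides making triglycerides, was at 10.18 with tied values. Bco1, which cleaves beta-carotene to retinal, was at 8.90 ± 0.03 (SD, n = 3). Lrat, the gene of the main retinol esterifying enzyme, was at 8.77 with tied values. The retinol carrier gene Rbp4, the related receptor gene Stra6l and the visual cycle gene Rpe65 were not called, at 6.95, 6.97 and 5.05.

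Genes of retinol and retinal dehydrogenases and reductases were above background in 6 of 18 (33.3%, against 36.6% of all named genes). At the level of 9.16 Dhrs4, Adh1 and Adh7 were lost and 3 were left, against 19.3% of all named genes. Rdh11, a retinal reductase gene, had 10.53, 10.36 and 10.77 in replicates 1, 2 and 3 (limma, adjusted p = 0.00158). Rdh10, whose product carries out the retinol oxidation that the mouse embryo needs, had 9.76, 9.93 and 9.76 in replicates 1, 2 and 3 (limma, adjusted p = 0.000694). The alcohol dehydrogenase genes Adh5, Adh1 and Adh7 were at 9.59, 9.07 and 8.42, and Dhrs4 at 8.20. Rdh14 had 8.01, 8.005 and 8.49 in replicates 1, 2 and 3 and was not called (limma, adjusted p = 0.437), although all arrays lay above the level. Dhrs3, a retinal reductase gene that retinoic acid induces, was not called at 7.37 with tied values but was with the olfactory receptor level (limma, adjusted p = 2.54e-09), and the lowest of the group was Sdr16c5 at 4.27.

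With limma 0 of the 6 RAR and RXR receptor genes were called, and the means of all 6 lay below the background level. The counts without adjustment (p under 0.05) and without a model (every array above the level) therefore had to be 0 too. Rxra came closest with 7.97 in each replicate and a mean minus level of -0.01, and Rara, the receptor gene known from Sertoli cells, had 7.72 with tied values. Rarb, a classic target of retinoic acid, had 6.48 with tied values, and Rarg, Rxrb and Rxrg had means of 6.90, 7.02 and 5.87. At the level of 7.64 without pseudogenes, Rxra (limma, adjusted p = 1.08e-05) and Rara (limma, adjusted p = 2.82e-08) were called, against 43.6% of all named genes. With the olfactory receptor level the same 2 of the 6 were called, against 55.0% of all named genes. Among receptor cofactors the coactivator genes Ncoa2 at 9.75, Ncoa1 at 8.88 and Ncoa3 at 8.41 were called, and Nrip1, a corepressor gene that retinoic acid induces, was not at 7.74. The carrier gene Fabp5, which can deliver retinoic acid to another nuclear receptor, was not called at 7.20 with tied values but was with the olfactory receptor level (limma, adjusted p = 8.1e-07).

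Of 15 measured genes known to respond to retinoic acid in the testis or elsewhere, 5 were above background (33.3%, against 36.6% of all named genes). At the level of 9.16 the count was 2 (13.3%, against 19.3% of all named genes). With the olfactory receptor level it was 9 (60%, against 55.0% of all named genes). Rai14 was at 11.54 ± 0.09 (SD, n = 3) and the synaptonemal complex gene Sycp3 at 11.29 ± 0.19. Kit at 8.24, Rarres1 at 8.13 and the meiotic cohesin gene Rec8 at 8.08 lay within 0.26 of the level of 7.98. Without replicate 1 the count was 3, as Kit (limma, adjusted p = 0.0636) and Rarres1 (limma, adjusted p = 0.0712) were lost. Kit was also lost without replicate 3 (limma, adjusted p = 0.0948) and Rarres1 without replicate 2 (limma, adjusted p = 0.08). Rec8 has tied values, and with the SD raised as for Aldh1a2 it was not called (limma, adjusted p = 0.0571). Sall4, Hoxb1, Rarres2, Tgm2, Cdx1, Efnb1, Bhlhe40 and Tfap2c were not called, with means from 5.28 to 7.95. No sample with altered retinoic acid was given, so these levels do not measure a response.

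**Figure D5:**
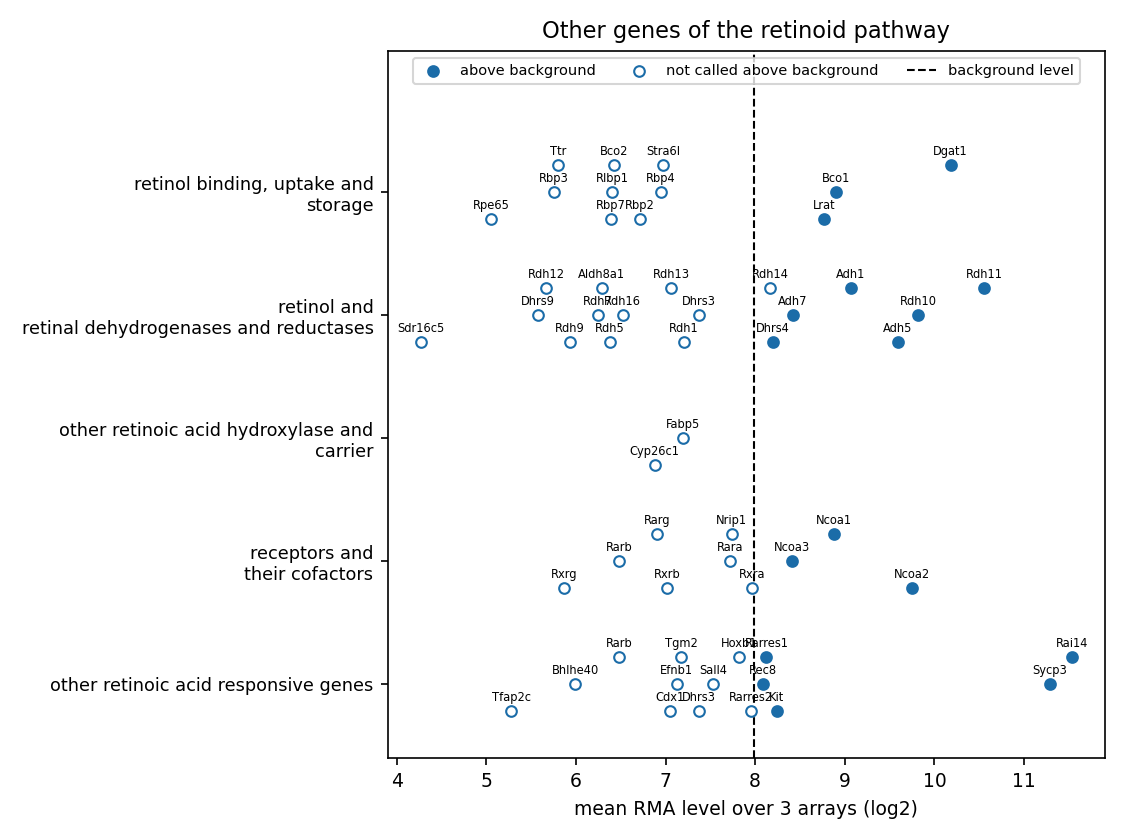
Mean RMA level (log2) over the 3 arrays of each measured gene of the wider retinoid pathway, 1 named point per gene, by group, filled where called above background and open where not, with the background level dashed. In every group the open points are in the majority, and the 6 receptor genes all lie left of the line.

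The promoter table held 11 starts for 7 of the 9 members, and Aldh1a3 and Crabp2 were not matched. A direct repeat of the half-site hexamers, in either orientation, was found with 5 bases between them in Cyp26a1. Repeats with 1, 2 or 5 bases between them were found in no other matched member, and the unmatched Aldh1a3 and Crabp2 could not be searched. In Cyp26a1 the repeat reads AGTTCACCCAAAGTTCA on the strand opposite to the gene and spans bases 219 to 235 of the sequence printed above, in which the transcription start is base 251. Rarb holds a repeat of the same spacing, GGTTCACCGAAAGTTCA, on its own strand. Such a repeat stood in 32 of 32851 promoters (0.0974%), repeats with 1 base between the hexamers in 0.222% and with 2 bases in 0.268%. Stra8 held 2 single half-sites, AGGTCA at both places, and 1 of the 2 Aldh1a1 starts and 1 of the 4 Stra6 starts held a single one, while 43.7% of all promoters hold at least 1.

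Of 11 measured genes with the 5-base repeat, which include Cyp26a1 and Rarb, 1 was above background, the cilia gene Cfap45 at 10.85, named after its values were seen. Their median level was 6.77, against 7.45 for all named genes. With 1 base between the hexamers 21 of 38 measured genes were called and with 2 bases 8 of 14, against 36.6% of all named genes. Genes with these 2 repeats numbered 71 and 84 in that order, so many were not measured. Of 6931 measured genes with at least 1 half-site, 2519 were called (36.3%). This search was added after the levels were known and has no test, and a match is a description of letters and not of a bound site. The GC content of the members' promoters ran from 43.3% at the first Aldh1a1 start to 78.0% at Aldh1a2, against a median of 52.7% over all promoters.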

How the data were processed

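Levels are log2 values deposited by the authors, who ran Robust Multichip Average (RMA) in Affymetrix Power Tools on mm9-based annotation, per the series' design text (software version not given in the sources used here). Column medians were 7.17, 7.20 and 7.17, values were not centred, and Pearson's r between arrays over 35556 probe sets was 0.992 to 0.995. Total RNA of 200 ng was labelled per array, per the labels. No scanner files were used, so detection calls and background correction could not be varied, and the number of arrays, 3, limits the precision.

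The platform annotation named 1 gene for 21789 probe sets, several for 1621 and none for 12146. Symbols were updated by Entrez identifier to the RefSeq table of GRCm38.p6 for 21698 of these. Where several probe sets name 1 gene alone, their median was taken. The background set held 167 vomeronasal receptor genes (Vmn1r, Vmn2r, 4 pseudogenes included) and 44 Krtap genes. Calls used limma 3.58.1 in R 4.3.3, an intercept model with empirical Bayes (prior degrees of freedom 0.267), checked on simulated data. The text names all 9 members, genes of the retinoid lists and the highest, lowest or defining markers of each list. The members, lists and tests were chosen with earlier results of these data known. Some genes of these lists are not reported here. Alternatives varied the background level and families, variance model, scaling, probe sets, dim-gene filter and replicates.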

Additional observations from a re-analysis of the deposited data

How the results depend on the processing

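The calls of Aldh1a1, Aldh1a2 and Crabp1 and the direction of their distance from the background level held in all 14 alternatives tried for each. Over the 9 members, 118 of 121 distances kept their side of the level and their call. The others were Cyp26b1 with the olfactory receptor level, 0.13 above, and Stra6 with that level, 0.68 above, and without pseudogenes, 0.21 above, and each follows from the lower level. The count of members called was 5 with the olfactory receptor level. The count of other retinoid genes was 7 at the 99th percentile level and 27 with the olfactory receptor level, against 17 in the report, and the count of all genes was 3847 and 10958 in that order, against 7295. Leaving out 1 replicate gave 3 members in each case, 15 to 17 other retinoid genes and 6662 to 7100 of all genes. Without pseudogenes, an alternative chosen after seeing the data, 4 members and 22 other retinoid genes were called, and the count for receptors and cofactors was 6, against 3, while 43.6% of all named genes were called there. Adding probe sets of several genes left 13 other retinoid genes, 2 of them in the responsive group, as Dhrs4, Rec8, Kit and Rarres1 were lost, while the count of all genes was 6114 (30.7%). Rdh14, whose own SD was 0.28, was called in the setting that raised low SDs, where limma then drew the SDs towards a common value. Rarres2 was called without replicate 2, and Nrip1, Hoxb1 and Rarres2 without pseudogenes. Leaving out genes below the median level removed 5 of the 9 members from the test. Every member has 1 probe set, so the highest probe set per gene gave the same member levels. No paired analysis was possible because all samples belong to 1 group.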
